A study of Mus musculus with 35 samples.

Results

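Interferon-stimulated genes, whose products sense, degrade or trap viral nucleic acid and proteins, were followed in the lungs of mice with and without caveolin-1 (Cav1), the coat protein of caveolae. The 32 genes were taken by symbol from the count table, and all 32 were found among its 54532 genes. RNA had been sequenced from whole lungs of 34 adult mice, at least 3 months old, in 12 groups. Control mice were B6/129SJ2 wild types. Cav1-KO mice (Cav1(tm1Mls/)J) lacked Cav1 in every cell, and Cav1-RC mice had the knockout with Cav1 expressed again in endothelial cells. What drives that expression is not given in the sources used here. Females and males of each genotype spent 6 weeks in room air (normoxia) or at 10% oxygen (hypoxia). There were 3 mice in each of 10 groups and 2 in each of the normoxic female groups of Cav1-KO and Cav1-RC. The design asked how sex, chronic hypoxia and endothelial Cav1 change the lung in a mouse model of pulmonary hypertension.

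Type I interferons bind a receptor whose kinases activate transcription factors, and Stat2 and Irf9 act together on a DNA element called the interferon-stimulated response element (ISRE). Interferon gamma uses its own receptor and acts through a different element, the gamma-activated site (GAS). Most lung cells can respond, and in healthy tissue a low tonic signal keeps many of these genes detectable.

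The libraries held 12425535 to 33343006 counts (median 18015172.5), and the lowest count of any of the 32 genes in any library was 13, for Oas3. Cav1 stood at 989 to 1356 CPM (counts scaled to library size) in the 12 Control libraries, at 1.61 to 4.0 CPM in Cav1-KO and at 1.48 to 6.56 CPM in Cav1-RC. The Cav1 count therefore separated Control from the others but did not tell Cav1-RC from Cav1-KO. Xist and Y-linked genes went against the labelled sex in 3 libraries, male Control hypoxia replicate 2 and male Cav1-RC normoxia replicates 1 and 2, which were kept under their labels. A list of animals used for western blots, given with the study, holds 12 of the 34 mice, among them all of male Control hypoxia, female Cav1-KO hypoxia and male Cav1-KO hypoxia. The remaining listed mice were replicate 1 of female Control normoxia, of female Control hypoxia and of female Cav1-RC normoxia. Markers of alveolar type 2 cells (13905 to 38306 CPM summed), club cells (14755 to 77369) and endothelium (4058 to 6496) were present in every library. Each library is 1 mouse, and in whole lung fewer cells of a type and less RNA per cell cannot be told apart.

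RefSeq promoter sequences of build GRCm38.p6 were at hand for 23 of the 32 genes, and the 250 bases before each start were searched for the ISRE core (GAAA, any 2 bases, GAAA) and for the GAS core TTCNNNGAA on both strands. The ISRE core lay in 12 of the 23 genes, against 3.46% of 27025 genes and 2.98% of all 32851 windows. The GAS core lay in 4 of the 23, against 8.13% of genes and 7.02% of windows. The windows of Isg15, Rsad2, Oas3 and Gbp2, which carry an ISRE core and stand for the ubiquitin-like, viperin, RNase L and guanylate-binding branches of the set, are shown with that of Xaf1, which carries none. The sequences run 5′ to 3′ on the strand of the gene, and capitals mark the ISRE core or its reverse complement. The 3 matches in Isg15 overlap one another and read as a single run of capitals.
Isg15, chr4:156200819-156201068, minus strand: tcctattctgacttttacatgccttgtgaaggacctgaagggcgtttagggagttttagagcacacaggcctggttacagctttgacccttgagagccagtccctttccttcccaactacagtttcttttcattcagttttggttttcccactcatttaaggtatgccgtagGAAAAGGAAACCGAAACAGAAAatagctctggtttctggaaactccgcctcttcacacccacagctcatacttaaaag
Rsad2, chr12:26456453-26456702, minus strand: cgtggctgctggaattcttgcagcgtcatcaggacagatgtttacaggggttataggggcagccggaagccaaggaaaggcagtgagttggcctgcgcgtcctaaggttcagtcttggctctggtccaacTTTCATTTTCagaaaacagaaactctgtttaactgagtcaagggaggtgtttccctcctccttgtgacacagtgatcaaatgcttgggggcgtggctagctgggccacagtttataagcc
Oas3, chr5:120777660-120777909, minus strand: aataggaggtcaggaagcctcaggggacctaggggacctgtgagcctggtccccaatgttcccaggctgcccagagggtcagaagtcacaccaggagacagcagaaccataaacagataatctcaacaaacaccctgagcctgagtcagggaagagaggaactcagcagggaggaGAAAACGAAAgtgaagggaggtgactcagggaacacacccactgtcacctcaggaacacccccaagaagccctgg
Gbp2, chr3:142620413-142620662, plus strand: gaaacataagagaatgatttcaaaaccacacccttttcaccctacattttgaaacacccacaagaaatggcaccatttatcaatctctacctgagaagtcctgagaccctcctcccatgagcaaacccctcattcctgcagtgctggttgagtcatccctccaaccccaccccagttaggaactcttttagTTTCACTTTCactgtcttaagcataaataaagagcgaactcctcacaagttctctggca
Xaf1, chr11:72301379-72301628, plus strand: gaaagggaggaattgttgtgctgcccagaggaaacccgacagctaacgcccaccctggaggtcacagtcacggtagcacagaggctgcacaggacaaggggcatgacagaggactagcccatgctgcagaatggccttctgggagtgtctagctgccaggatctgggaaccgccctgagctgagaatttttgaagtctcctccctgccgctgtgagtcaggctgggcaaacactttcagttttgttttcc

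Distances from the first base of the match to the start were 78, 72 and 66 bases in Isg15, 120 bases in Rsad2, 75 bases in Oas3 and 59 bases in Gbp2. A match is a description of these letters and says nothing of binding in the lung. The 2 windows of Ifit2 held no ISRE core either, while neighbouring Ifit1 and Ifit3 held 2 each.

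In the coordinates of the count table (build mm10), 15 of the 32 genes lay in 6 clusters of near neighbours. These were Rsad2 with Cmpk2 (chr12:26442746-26479837), Mx1 with Mx2 (chr16:97447035-97560900), Ifit1, Ifit2 and Ifit3 (chr19:34550694-34650009), Gbp2, Gbp3 and Gbp7 (chr3:142530342-142638008), Oasl1 with Oasl2 (chr5:114896936-114937915) and Oas1a, Oas2 and Oas3 (chr5:120730333-120907521). Near-identical copies in the Ifit, Oas, Gbp and Trim30 families may share reads, and 12 of the 32 genes overlapped another gene, most of them at very low counts. The exceptions were Irf7, which overlaps Phrf1, and Rtp4, which overlaps Masp1. Mx2 carries the biotype of a polymorphic pseudogene in the table.

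On the length-corrected scale (FPKM, fragments scaled to gene length and library size), median levels over the 34 libraries spanned from 0.412 FPKM for Oas3 to 108 FPKM for Bst2, the tetherin that holds budding virus at the cell surface. Ifi27l2a (58.1 FPKM), Ifit3 (34 FPKM), Gbp2 (31 FPKM) and Ifi35 (27.1 FPKM) followed. The cytosolic RNA sensors Ddx58, which encodes RIG-I, and Ifih1, which encodes MDA5, had medians of 9.5 FPKM and 5.59 FPKM. The transcription factors Stat2 and Irf7 had 14.9 FPKM and 8.62 FPKM. Among genes under 2 FPKM were Rsad2 (1.71 FPKM), Mx2 (1.6 FPKM), Oasl1 (1.30 FPKM) and Mx1 (0.927 FPKM). The ratio of the highest to the lowest library was wide for Rsad2 (0.334 to 19.8 FPKM), and small for Ddx58 (6.70 to 11.4 FPKM).

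In 2 single libraries nearly the whole set was high. Male Control normoxia replicate 2 and male Cav1-KO hypoxia replicate 1 stood 1.00 and 0.96 log2 units above the mean of the 34 libraries, averaged over the 32 genes. The other 32 libraries lay between -0.50 and 0.34. For 28 of the 32 genes the highest of all 34 values was in these 2 libraries, 14 in each. Against the mates of its own group, replicate 2 of male Control normoxia was highest for 31 of 32 genes and replicate 1 of male Cav1-KO hypoxia for 32 of 32, while 28.3% and 35.4% of all genes did so. These libraries are described by the set itself and were not tested.

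In the Control library, Gbp2, a guanylate-binding GTPase typical of interferon gamma responses, had 269 CPM against 59.1 and 67.0 in its mates. Irf7, the factor that amplifies type I interferon, had 87.0 CPM against 29.7 and 33.3. Rsad2, the antiviral enzyme viperin, had 8.08 CPM there against 3.38 and 4.26. In the Cav1-KO library Gbp2 had 376 CPM against 64.4 and 77.5, and Stat2 had 253 CPM against 93.5 and 101. Rsad2 had 88.0 CPM there, against 4.39 and 68.9 in its mates. Of 95 further interferon-stimulated genes that were not among the 32, 78 were highest of the group in the Control library and 76 in the Cav1-KO library.

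Summed markers of natural killer cells were 147 CPM in the Control library against 69.7 and 93.1 in its mates, and T cell markers were 177 against 227.6 and 152. Plasmacytoid dendritic cell markers, from the cells that make most type I interferon, were 486 against 447 and 365. In the Cav1-KO library the same sums were 61.6 against 42.4 and 44.3, 85.1 against 93.8 and 96.2, and 543 against 389 and 440.2 CPM. The plasmacytoid list holds Bst2, itself 1 of the 32 genes, so its sum is not separate from the set. Bst2 had 160 CPM against 58.8 and 74.2 in the Control case and 202 against 116 and 120 in the Cav1-KO case. The part of these cells in the high values was not tested.

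**Figure D1:**
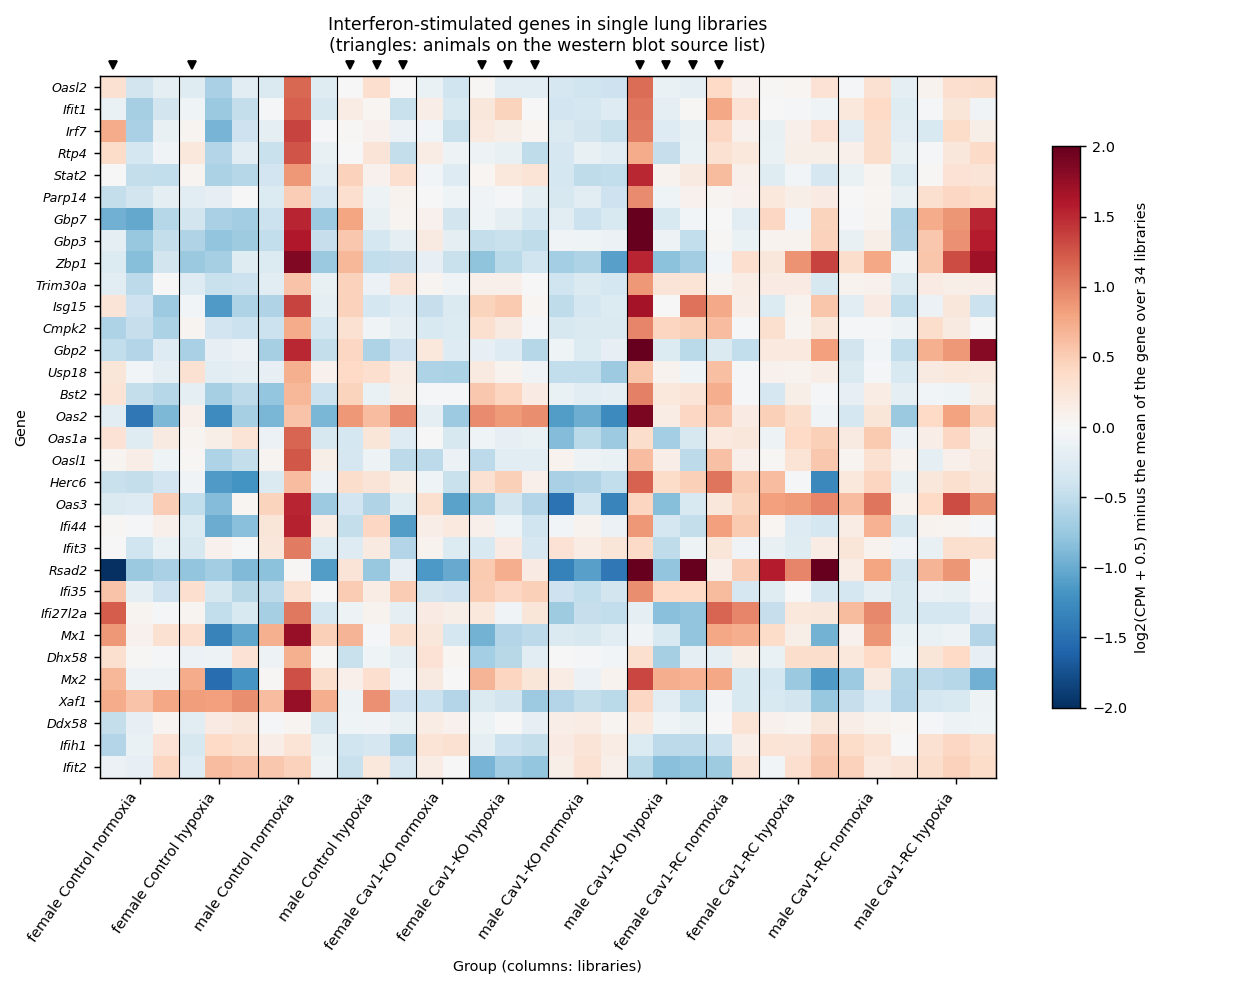
Each row is 1 of the 32 genes and each column 1 of the 34 libraries, ordered by group. Colour gives log2(CPM + 0.5) minus the mean of the gene, and triangles mark the 12 mice of the western blot list. Male Control normoxia replicate 2 and male Cav1-KO hypoxia replicate 1 are red in most rows. In the 4 rows at the foot (Xaf1, Ddx58, Ifih1 and Ifit2) they are pale or blue, apart from Xaf1 in the Control library.

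Groups were compared in 18 pairs with edgeR, and calls were made where the log2 fold change exceeded 1 in size and the adjusted p was under 0.05. Of the 32 genes, 16 were called in at least 1 of the 18 comparisons, which gave 35 calls in 11 comparisons. Rsad2 was called in 6, Oas3 and Xaf1 in 4 each and Zbp1 in 3. A further 10 genes passed the adjusted p in some comparison with a smaller fold change. Irf7, Ddx58, Rtp4, Oasl1, Ifi44 and Ifit3 passed it in none. By the adjusted p alone 15 of the 32 genes changed with hypoxia in Cav1-KO males and 12 in Cav1-KO females, where 55.1% and 38.2% of all genes did, and 5 in Cav1-RC males (7.89%) and 1 in Control males (16.0%). Cav1-RC against Cav1-KO passed 12 in normoxic males (12.5% of all genes), 10 in hypoxic females (20.8%) and 9 in hypoxic males (44.5%). Cav1-RC against Control passed 9 in hypoxic males (37.0%), and Cav1-KO against Control 3 in normoxic males (11.4%).

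**Figure D2:**
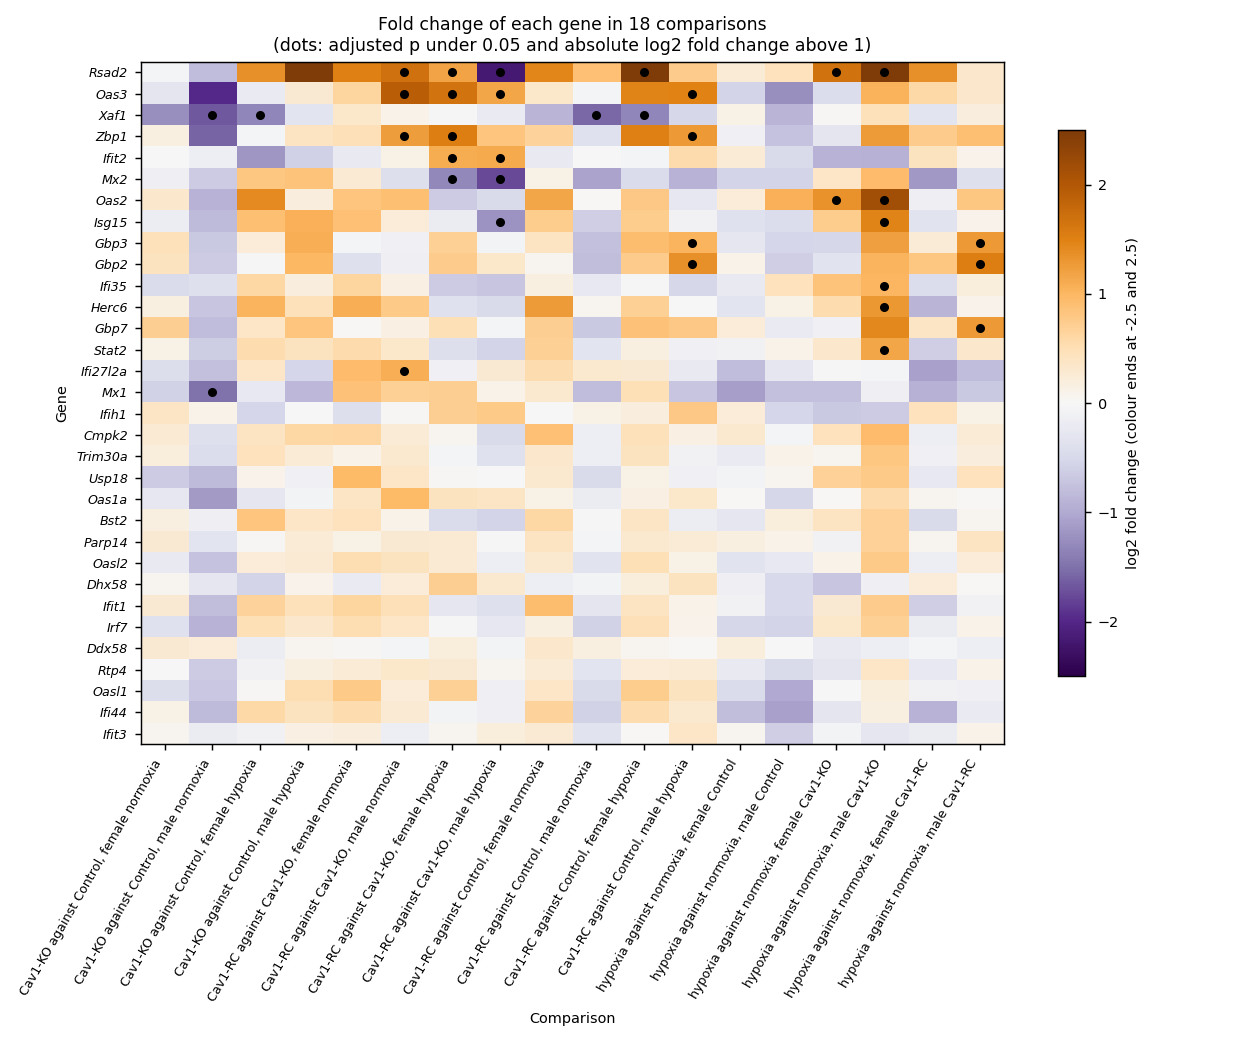
Rows are the 32 genes, columns the 18 comparisons, colour the log2 fold change of the group named at the start of the label, and dots the 35 calls. The column of hypoxia against normoxia in male Cav1-KO holds 6 dots, more than any other column shown, and Rsad2 has dots in both directions.

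Hypoxia was compared with normoxia within each genotype and sex. In male Cav1-KO lungs 6 of the 32 genes were called, all higher in hypoxia, namely Rsad2, Oas2, Isg15, Herc6, Stat2 and Ifi35. This is 18.8% of the set, and 17.7% of all genes tested were called in that comparison, so the share was near the background. The median log2 fold change of the 32 genes was 0.76, beside 0.01 over all genes tested. Without male Cav1-KO hypoxia replicate 2 there were 13 calls (21.1% of all genes called) and without replicate 3 there were 12 (18.1%), while the median was 0.19 in a fit without 3 libraries, the 2 in which nearly the whole set was high and male Cav1-RC hypoxia replicate 3, which held high values of the guanylate-binding genes. In female Cav1-KO lungs Rsad2 and Oas2 were called higher, 6.25% of the set against 13.3% of all genes. The median log2 fold change of the 32 genes was 0.00, beside 0.02 over all genes tested. In male Cav1-RC lungs the 3 guanylate-binding genes Gbp2, Gbp3 and Gbp7 were called higher, 9.38% against 2.27%. The median log2 fold change of the 32 genes was 0.12, beside 0.00 over all genes tested. None of the 32 was called in female Control (0.0175% of all genes called), male Control (6.36%) or female Cav1-RC (0.0285%), where the numbers at an unadjusted p under 0.05 were 1, 3 and 7 in edgeR (4.79%, 36.1% and 5.2% of all genes) and DESeq2 called 0, 1 and 0 (0.363%, 4.63% and 0.469% of the genes it gave a p). Between hypoxic and normoxic Cav1-KO males 6 of the 12 summed cell marker lists did not overlap, higher in hypoxia for ciliated cell (467 to 570.1 against 232 to 258 CPM) and club cell (52179.8 to 59737 against 17599 to 18836 CPM) and lower for monocyte (1596 to 1762 against 2493 to 2625 CPM), T cell (85.1 to 96.2 against 97.6 to 119 CPM), alveolar type 1 (3638 to 4583 against 5828 to 6017 CPM) and alveolar type 2 (13905 to 15095 against 19364 to 22474 CPM). In Cav1-KO females 7 of the 12 summed cell marker lists did not overlap, higher in hypoxia for ciliated cell (494 to 763 against 209 to 244 CPM) and club cell (38797 to 61114 against 14755 to 16372 CPM) and lower for macrophage (568 to 753 against 1198 to 1495 CPM), monocyte (1581 to 1859.7 against 2589 to 2874 CPM), T cell (82.4 to 111 against 119 to 137 CPM), natural killer cell (40.5 to 54.5 against 73.2 to 137 CPM) and alveolar type 1 (4037 to 4751 against 5061 to 5387 CPM). Their part in these changes, and whether hypoxia acted differently in the genotypes, was not tested.

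Cav1-KO was compared with Control to ask what global loss of Cav1 does. In male normoxia Xaf1 and Mx1 were called lower (6.25% of the set against 5.0% of all genes), and in female hypoxia Xaf1 was called lower (3.12% against 0.768%). Neither female normoxia (0.122% of all genes called) nor male hypoxia (0.929%) gave a call, with 3 and 7 of the 32 at an unadjusted p under 0.05 in edgeR (11.5% and 19.5% of all genes) and 1 call each by DESeq2 (1.86% and 1.52%). The female hypoxia count moved from 0 to 7 with single libraries left out, with 7 calls without female Control hypoxia replicate 1 (23.9% of all genes called) and 0 without any 1 of the other 5. In male normoxia the median of the 32 genes was -0.70, beside -0.01 over all genes, and 30 of 32 had a negative fold change. In the fit without the 3 libraries named above it was -0.10, and 1 gene, Xaf1, was called in the comparison. Without male Control normoxia replicate 1, in turn, 12 of the 32 were called, where 9.75% of all genes were. In male normoxia 7 of the 12 summed cell marker lists did not overlap, higher in Cav1-KO for monocyte (2493 to 2625 against 1274 to 2322 CPM), endothelial (5342 to 5627 against 4058 to 4888 CPM) and alveolar type 1 (5828 to 6017 against 3314 to 5023 CPM) and lower for T cell (97.6 to 119 against 152 to 227.6 CPM), B cell (64.7 to 97.2 against 118 to 228.3 CPM), ciliated cell (232 to 258 against 454 to 679 CPM) and club cell (17599 to 18836 against 21716 to 49681 CPM). In female hypoxia 3 of the 12 summed cell marker lists did not overlap, higher in Cav1-KO for plasmacytoid dendritic cell (418.4 to 477 against 347 to 401.97 CPM) and lower for T cell (82.4 to 111 against 121 to 155 CPM) and alveolar type 2 (17369.7 to 22739 against 22968 to 38306 CPM). The plasmacytoid list holds Bst2, itself 1 of the 32 genes, at 113 to 146 against 63.2 to 88.7 CPM. Its sum is thus not separate from the set. The part of the marker lists in the differences was not tested.

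Cav1-RC was compared with Cav1-KO to ask what endothelial Cav1 adds to the knockout. In male normoxia Rsad2, Zbp1, Oas3 and Ifi27l2a were called higher in Cav1-RC, 12.5% of the set against 3.59% of all genes, and 12 of the 32 passed the adjusted p, all higher. The fit over all 34 libraries called 0 of the 32 in this comparison, and the share of all genes it called was not set beside this. Rsad2, Zbp1, Oas3 and Ifi27l2a changed there by 1.07 to 1.92, with adjusted p between 0.0571 and 0.478. The comparison holds the male Cav1-RC libraries whose sex genes go against the label. Without them the Cav1-RC group is 1 mouse, so that no spread of its own stands behind a test. In female hypoxia Rsad2, Zbp1, Oas3 and Ifit2 were called higher and Mx2 lower, 15.6% against 8.98%. In male hypoxia Oas3 and Ifit2 were called higher, and Rsad2, Mx2 and Isg15 lower, 15.6% against 14.8%. In female normoxia, with 2 mice in each group, none was called (0.1% of all genes), with 6 of the 32 at an unadjusted p under 0.05 in edgeR (8.73% of all genes) and 1 call by DESeq2 (1.29%). Without female Cav1-RC normoxia replicate 2, which leaves 1 Cav1-RC mouse assumed to vary like the Cav1-KO pair, 7 were called (16.2% of all genes), and 1 was without replicate 1 (1.01%). Medians of the 32 were 0.28 in male normoxia, 0.14 in female hypoxia, -0.10 in male hypoxia and 0.49 in female normoxia, beside all-gene medians between -0.02 and 0.00. Without the same 3 libraries the male hypoxia median was 0.33. Under hypoxia in females 5 of the 12 summed cell marker lists did not overlap, higher in Cav1-RC for monocyte (1860.1 to 2912 against 1581 to 1859.7 CPM), T cell (153 to 178 against 82.4 to 111 CPM), B cell (169 to 215 against 42.0 to 129 CPM) and alveolar type 1 (4786 to 6516 against 4037 to 4751 CPM) and lower for club cell (24830.3 to 31585 against 38797 to 61114 CPM). Under hypoxia in males 7 of the 12 summed cell marker lists did not overlap, higher in Cav1-RC for monocyte (2024 to 2148 against 1596 to 1762 CPM), T cell (116 to 136 against 85.1 to 96.2 CPM), B cell (100.4 to 111 against 50.1 to 73.4 CPM), alveolar type 1 (5283 to 5907 against 3638 to 4583 CPM), alveolar type 2 (19161 to 26264 against 13905 to 15095 CPM) and ciliated cell (617 to 684 against 467 to 570.1 CPM) and lower for club cell (25007 to 37317 against 52179.8 to 59737 CPM). Among normoxic males 7 of the 12 summed cell marker lists did not overlap, higher in Cav1-RC for neutrophil (166 to 205.6 against 48.5 to 104 CPM), T cell (153 to 173 against 97.6 to 119 CPM), B cell (165 to 188 against 64.7 to 97.2 CPM), alveolar type 2 (22881 to 26064 against 19364 to 22474 CPM), ciliated cell (356 to 486 against 232 to 258 CPM) and club cell (21769 to 28107 against 17599 to 18836 CPM) and lower for monocyte (1979.7 to 2291 against 2493 to 2625 CPM). Every marker of these lists had counts in some of the 34 libraries, and their part in the differences was not tested.

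Cav1-RC was also set against Control. In male hypoxia Gbp2, Gbp3, Zbp1 and Oas3 were called higher, 12.5% of the set against 9.9% of all genes. In female hypoxia Rsad2 was called higher and Xaf1 lower, 6.25% against 0.832%, and in male normoxia Xaf1 was called lower, 3.12% against 2.45%. In female normoxia none was called (0.137% of all genes), with 9 of the 32 at an unadjusted p under 0.05 in edgeR (4.18% of all genes) and 1 call by DESeq2 (0.659%). In female hypoxia 28 of 32 genes had a positive fold change, with a median of 0.41 beside -0.02 over all genes. Cell marker sums were set out here too, and in hypoxic males 4 of the 12 summed cell marker lists did not overlap, higher in Cav1-RC for monocyte (2024 to 2148 against 1499 to 1561 CPM), neutrophil (294 to 727 against 183 to 262 CPM) and alveolar type 1 (5283 to 5907 against 3618 to 4897 CPM) and lower for ciliated cell (617 to 684 against 704 to 887 CPM). For hypoxic females 3 of the 12 summed cell marker lists did not overlap, higher in Cav1-RC for neutrophil (358 to 560.3 against 96.9 to 136 CPM) and B cell (169 to 215 against 60.7 to 88.5 CPM) and lower for natural killer cell (31.03 to 43.6 against 45.6 to 66.9 CPM). For normoxic males 3 of the 12 summed cell marker lists did not overlap, higher in Cav1-RC for neutrophil (166 to 205.6 against 95.5 to 134 CPM), endothelial (5300.3 to 5516 against 4058 to 4888 CPM) and alveolar type 1 (5759.5 to 5864 against 3314 to 5023 CPM). Their part was not tested. These comparisons share Cav1-RC and Control libraries with those above, so the lists of calls are not independent.

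Being on the western blot list coincided with some of these comparisons. In 6 of the 18, 1 group was wholly listed and the other not at all, and 22 of the 35 calls came from these. With a term for the list in 1 fit over all 34 libraries, 2 of those 22 calls were kept, both of Rsad2, and 7 of the other 13. The fit over all libraries without that term kept 22 of the 35, so pooling the groups lost calls by itself. The list term can be estimated only within the groups that hold both kinds of mice. These are all female, with 1 listed mouse in each, so its use in males is an extrapolation. In wholly split comparisons it widens the error, and a call lost there cannot tell the list from the groups. In Cav1-KO the list and hypoxia cannot be told apart, since all hypoxic and no normoxic mice were listed.

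Rsad2, viperin, makes a chain-terminating nucleotide that stops viral polymerases. In Control lungs it was low in normoxia, at 1.46, 4.53 and 4.91 CPM in females and 4.26, 8.08 and 3.38 CPM in males. Under hypoxia the Control values were 4.38, 4.73 and 4.07 CPM in females and 9.62, 4.52 and 7.03 CPM in males, so all 12 Control libraries stayed below 10 CPM. Normoxic Cav1-KO lungs held 3.32 and 3.71 CPM in females and 2.80, 3.48 and 2.64 CPM in males. Hypoxic Cav1-KO females were higher without overlap, at 11.7, 13.5 and 8.94 CPM. Hypoxic Cav1-KO males split into high and low mice, at 88.0, 4.39 and 68.9 CPM, and the lowest of these exceeded the normoxic males. In Cav1-RC the normoxic values were 8.53 and 11.4 CPM in females and 8.84, 14.1 and 6.08 CPM in males, above the Cav1-KO normoxic range in every library. Hypoxic Cav1-RC females reached 24.6, 16.2 and 36.9 CPM and hypoxic males 13, 15.0 and 7.89 CPM.

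Rsad2 rose with hypoxia in Cav1-KO males, at a log2 fold change of 4.15 ± 0.87 (SE) with an adjusted p of 0.00369, and in Cav1-KO females, at 1.67 ± 0.24 (adjusted p = 0.00265). Given the blot list term, these were 4.77 (adjusted p = 0.00711) and 2.29 (adjusted p = 0.281). The pooled fit without the 3 libraries named above, which has no such term, also lost the female call, at 1.67 (adjusted p = 0.0808). In normoxic males Cav1-RC exceeded Cav1-KO by 1.70 ± 0.28 (adjusted p = 0.00339). The fit over all 34 libraries gave 1.68 (adjusted p = 0.225), and without replicates 1 and 2, whose sex genes go against the label, the 1 remaining Cav1-RC mouse differed by 1.02, with no test. Under hypoxia Cav1-RC females exceeded Cav1-KO females by 1.19 ± 0.29 (adjusted p = 0.0246) and Control females by 2.57 ± 0.32 (adjusted p = 0.0173). With the list term the former was 0.57 (adjusted p = 0.736) and the latter 2.31 (adjusted p = 0.0201). The former was already not called in the fit over all 34 libraries without the term, at 1.19 (adjusted p = 0.119). Hypoxic Cav1-RC males, however, were lower than hypoxic Cav1-KO males, at -2.18 ± 0.78 (adjusted p = 0.0470), and these groups overlapped. Of 9 alternative settings 5 kept this call, the list term among them at -2.79 (adjusted p = 0.0400). It was lost by the DESeq2 Wald test (-2.16, adjusted p = 0.0950), by limma and with the replicate block (-1.69, adjusted p = 0.189). Without the 3 libraries named above it was -1.40 (adjusted p = 0.174). Over both sexes the hypoxic change in Cav1-KO was 2.91 ± 0.48 (adjusted p = 5.54e-05). Cmpk2, a mitochondrial nucleotide kinase and the neighbour of Rsad2, had a smaller range. It rose with hypoxia in Cav1-KO males by 0.94 ± 0.14 (adjusted p = 0.000628) and in females by 0.43 ± 0.12 (adjusted p = 0.0307), with 66.4, 45.1 and 46.8 CPM against 26.5, 27.2 and 27.3 CPM in males.

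**Figure D3:**
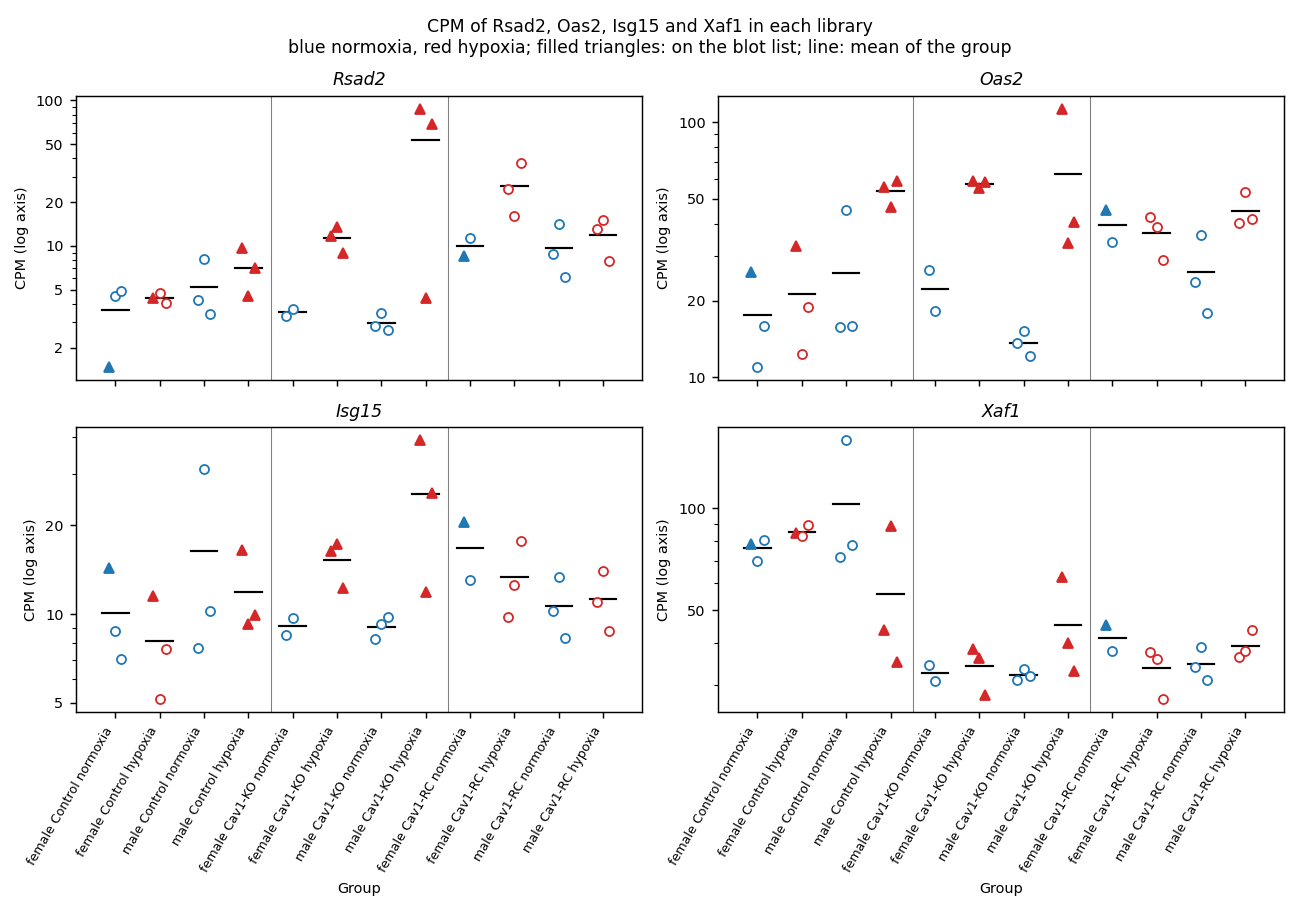
CPM on a log axis in each library of the 12 groups for Rsad2, Oas2, Isg15 and Xaf1, with normoxia in blue, hypoxia in red, filled triangles for mice on the western blot list and a line at the mean of the group. Rsad2 reaches 88.0 and 68.9 CPM in hypoxic Cav1-KO males, and Xaf1 lies at 69.8 to 158 CPM in normoxic Control.

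The oligoadenylate synthetases make the activator of RNase L, which cuts RNA in infected cells. Oas2 was 13.6, 15.2 and 12.2 CPM in normoxic Cav1-KO males and 113, 33.6 and 40.7 CPM in hypoxic ones. In Cav1-KO females it was 26.3 and 18.1 CPM in normoxia and 58.5, 55.1 and 58.1 CPM in hypoxia, so the groups were apart in both sexes. Hypoxia gave a log2 fold change of 2.17 ± 0.41 (SE) with an adjusted p of 0.00217 in males and 1.34 ± 0.16 (adjusted p = 0.00165) in females. In the fit with the list term the values were 1.33 (adjusted p = 0.239) and 0.51 (adjusted p = 0.765). Male Control hypoxia, wholly listed, had 55.8, 46.5 and 58.9 CPM, and unlisted hypoxic Cav1-RC males 40.2, 53.2 and 41.7 CPM.

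Oas3, a long form of the same enzyme, was called higher in Cav1-RC in 4 comparisons, although the highest value of all, 10.0 CPM, was that of male Control normoxia replicate 2. Cav1-RC lungs held 3.76 and 4.49 CPM in normoxic females, 5.13, 7.16 and 3.34 in normoxic males, 5.96, 6.12 and 6.67 in females under hypoxia and 4.33, 8.49 and 6.45 in hypoxic males. Cav1-KO lungs held 4.04 and 1.24, 0.808, 2.27 and 0.970, 1.66, 2.34 and 1.93 and 4.42, 1.53 and 2.45 CPM in the same order. Cav1-RC exceeded Cav1-KO by 1.93 ± 0.38 (adjusted p = 0.00779) among normoxic males, by 1.65 ± 0.26 (adjusted p = 0.00653) among females under hypoxia and 1.17 ± 0.39 (adjusted p = 0.0365) in hypoxic males. Without the 2 normoxic Cav1-RC libraries whose sex genes go against the label, the third mouse differed by 1.29, with no test. Cav1-RC exceeded Control in hypoxic males by 1.49 ± 0.30 (adjusted p = 0.00606), where the Control values were 2.29, 1.91 and 2.58 CPM. Once the list was a term, the first of these kept its call, at 1.92 (adjusted p = 0.0405), while the hypoxic ones were 1.32 (adjusted p = 0.272), 0.85 (adjusted p = 0.518) and 1.14 (adjusted p = 0.480). In the same fit without the term the first was not called, at 1.92 (adjusted p = 0.0571). Nor was Cav1-RC against Cav1-KO in hypoxic males, at 1.18 (adjusted p = 0.0685). The counts of Oas3 are low, from 13 reads upward.

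Oas1a and Oasl2 passed the adjusted p in Cav1-RC against Cav1-KO in normoxic males, at 0.97 ± 0.17 (adjusted p = 0.00468) and 0.42 ± 0.11 (adjusted p = 0.0265). Oasl1, which restrains Irf7, ranged from 2.00 to 8.57 CPM and passed in no comparison.

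Isg15 is a ubiquitin-like protein that is joined to other proteins, Herc6 the mouse ligase that attaches it and Usp18 the protease that removes it. Isg15 was 8.20, 9.23 and 9.76 CPM in normoxic Cav1-KO males and 38.9, 11.9 and 25.8 CPM in hypoxic ones, all above the normoxic values. Hypoxia gave 1.48 ± 0.35 (adjusted p = 0.00625) in these males and 0.73 ± 0.19 (adjusted p = 0.0215) in Cav1-KO females, where the second is below the fold limit. Cav1-RC males under hypoxia had 11, 14 and 8.73 CPM and were lower than Cav1-KO males, at -1.20 ± 0.37 (adjusted p = 0.0264), with overlap. This was -0.76 without male Cav1-KO hypoxia replicate 1 and -0.40 (adjusted p = 0.739) with the list term. Herc6 rose with hypoxia in Cav1-KO males from 14.5, 15.1 and 16.3 CPM to 53.1, 29.9 and 32.5 CPM, without overlap, at 1.31 ± 0.20 (adjusted p = 0.000733). Usp18 rose in the same males by 0.77 ± 0.17 (adjusted p = 0.00450) and in females by 0.68 ± 0.12 (adjusted p = 0.00512), and in Cav1-KO against Control in normoxic males it was lower, at -0.83 ± 0.22 (adjusted p = 0.0479). With the blot list term Isg15, Herc6 and Stat2 in Cav1-KO males were 0.68 (adjusted p = 0.650), 0.73 (adjusted p = 0.494) and 0.62 (adjusted p = 0.505).

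Stat2 and Irf7 are the transcription factors of the set. Stat2 in Cav1-KO males was 69.9, 62.5 and 62.8 CPM in normoxia and 253, 93.5 and 101 CPM in hypoxia, a change of 1.17 ± 0.33 (adjusted p = 0.0149). Without male Cav1-KO hypoxia replicate 1 it was 0.57, below the fold limit. Irf7 ranged from 17.6 to 87.0 CPM and its smallest adjusted p over the 18 comparisons was 0.0788.

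The guanylate-binding proteins are GTPases that attack the vacuoles of intracellular pathogens. Gbp2 in male Cav1-RC lungs was 72.7, 90.0 and 66.5 CPM in normoxia and 154, 172 and 332 CPM in hypoxia. In female Cav1-RC lungs it was 76.5 and 66.4 CPM in normoxia and 107, 107 and 166 CPM in hypoxia. In both sexes every hypoxic value of Cav1-RC lay above every normoxic one. The change passed the test in males, with a log2 fold change of 1.53 ± 0.27 (SE) with an adjusted p of 0.0137, and was 0.81 ± 0.26 (adjusted p = 0.782) in females. Gbp3 and Gbp7 in males changed by 1.28 ± 0.26 (adjusted p = 0.0215) and 1.28 ± 0.23 (adjusted p = 0.0145). For Gbp3 the male values were 48.3, 58.3 and 35.2 CPM in normoxia and 78.6, 102 and 161 CPM in hypoxia, and in females 54.7 and 49.0 and 56.5, 56.7 and 74.0 CPM. Against hypoxic Control males, at 126, 60.8 and 70.3 CPM of Gbp2 and 78.0, 42.1 and 47.1 CPM of Gbp3, the Cav1-RC males were higher by 1.35 ± 0.34 (adjusted p = 0.0156) and 1.02 ± 0.29 (adjusted p = 0.0250). This comparison sets wholly listed Control against unlisted Cav1-RC mice. In the fit with the list term the differences were 1.17 (adjusted p = 0.476) and 1.25 (adjusted p = 0.441). In the fit without the 3 libraries named above they were 0.90 and 0.67, below the fold limit.

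Male Cav1-RC hypoxia replicate 3 held the highest of these values, and without it the hypoxic changes in male Cav1-RC were 1.10 for Gbp2, 0.94 for Gbp3 and 0.99 for Gbp7, of which Gbp2 alone kept its call. Without male Cav1-RC normoxia replicate 1 none of the 3 was called, with adjusted p between 0.0512 and 0.0792. In a fit over all 34 libraries with the list term they were 1.51 (adjusted p = 0.145), 1.26 (adjusted p = 0.235) and 1.26 (adjusted p = 0.224). None of the 3 was called in the same fit without the term either. The male Cav1-RC comparison holds no listed mouse, but 2 of its 3 normoxic libraries have sex genes against the label. Between its groups 6 of the 12 summed cell marker lists did not overlap, higher in hypoxia for neutrophil (294 to 727 against 166 to 205.6 CPM) and ciliated cell (617 to 684 against 356 to 486 CPM) and lower for macrophage (440.5 to 614 against 718 to 949.6 CPM), T cell (116 to 136 against 153 to 173 CPM), B cell (100.4 to 111 against 165 to 188 CPM) and natural killer cell (24.8 to 42.9 against 51.2 to 91.3 CPM). Their part in the change was not tested.

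**Figure D4:**
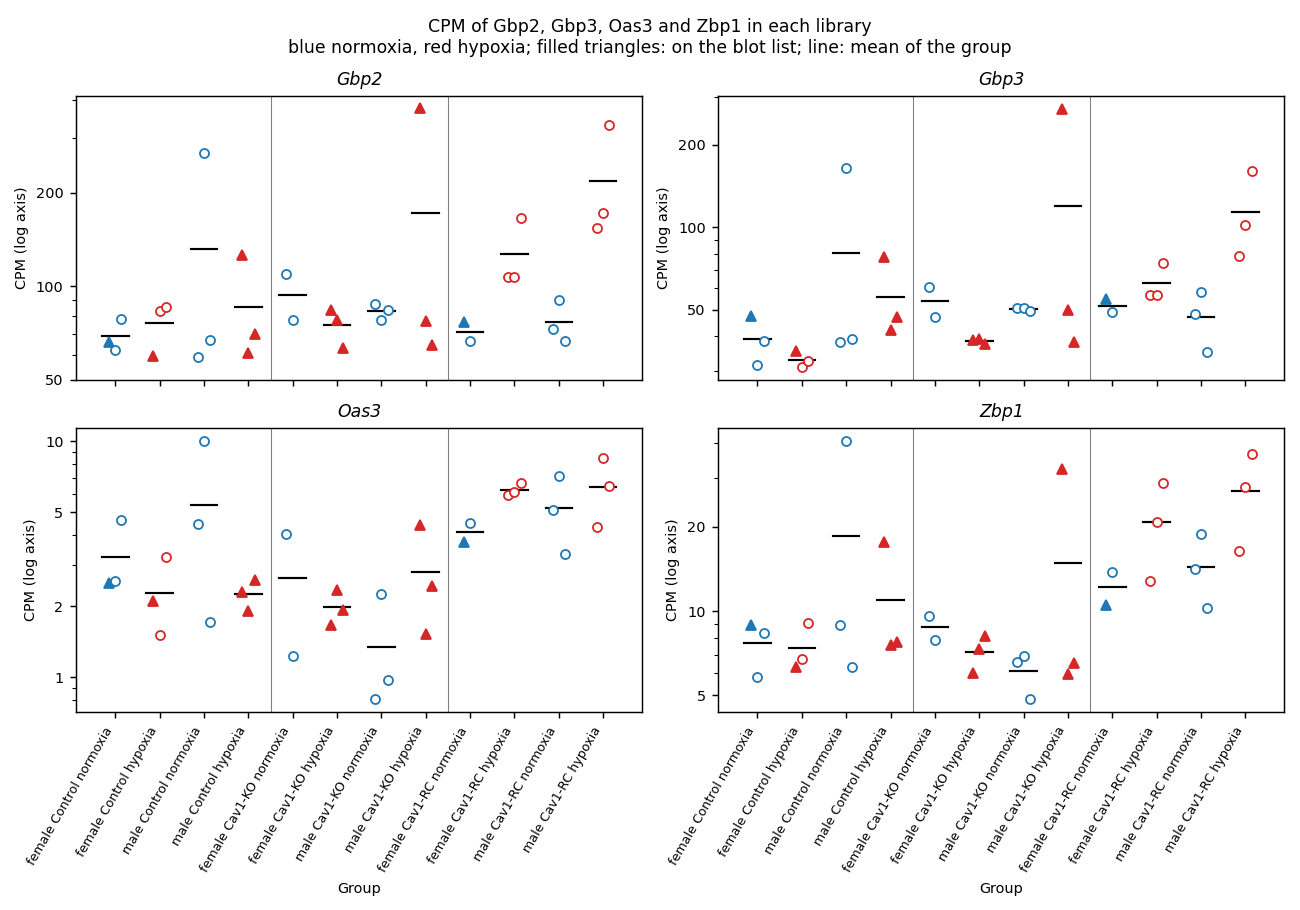
CPM on a log axis in each library of the 12 groups for Gbp2, Gbp3, Oas3 and Zbp1, with normoxia in blue, hypoxia in red, filled triangles for mice on the western blot list and a line at the mean of the group. Gbp2 in hypoxic Cav1-RC lies at 107 to 332 CPM, above 66.4 to 90.0 CPM in normoxic Cav1-RC, and male Control normoxia replicate 2 and male Cav1-KO hypoxia replicate 1 reach 269 and 376 CPM.

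Zbp1, a sensor of left-handed nucleic acid that can trigger necroptosis, was called higher in Cav1-RC in 3 comparisons. Normoxic Cav1-RC males had 14.1, 18.9 and 10.2 CPM and normoxic Cav1-KO males 6.59, 6.91 and 4.85 CPM, a difference of 1.24 ± 0.22 (adjusted p = 0.00447). The 2 higher Cav1-RC values are from the libraries whose sex genes go against the label, and the third mouse alone differed by 0.74, with no test. Hypoxic Cav1-RC females had 12.8, 20.9 and 28.6 CPM and hypoxic Cav1-KO females 6.03, 7.32 and 8.13 CPM, a difference of 1.53 ± 0.29 (adjusted p = 0.0112). Hypoxic Cav1-RC males had 16.3, 27.8 and 36.5 CPM against 17.7, 7.58 and 7.75 CPM in Control, a difference of 1.27 ± 0.37 (adjusted p = 0.0290) with overlap. None of these was called with the blot list term, at 1.22 (adjusted p = 0.377), 1.42 (adjusted p = 0.298) and 1.14 (adjusted p = 0.541). The first and the last were already not called in the same fit without the term, at 1.22 (adjusted p = 0.478) and 1.26 (adjusted p = 0.101).

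Xaf1, a pro-apoptotic partner of the inhibitor XIAP, was called lower in 4 comparisons with Control. Control lungs held 78.3, 69.8 and 80.3 CPM in normoxic females, 71.9, 158 and 78.0 in normoxic males and 84.1, 82.5 and 89.1 in females under hypoxia. Hypoxic Control males held 43.6, 88.3 and 35.0 CPM, so replicates 1 and 3 of that group stood apart from the other 10 Control libraries, whereas replicate 2, whose sex genes go against the label, did not. Over all Cav1-KO libraries the range was 28.1 to 62.6 CPM (median 33.5), and over Cav1-RC 27.3 to 45.1 CPM (median 37.6). Cav1-KO was lower than Control, at -1.67 ± 0.29 (adjusted p = 0.0109) among normoxic males and -1.33 ± 0.15 (adjusted p = 0.0175) for females under hypoxia. Cav1-RC was lower, at -1.58 ± 0.30 (adjusted p = 0.0271) and -1.32 ± 0.17 (adjusted p = 0.0191) in the same groups. All 4 calls were kept with the blot list term, at -1.65 (adjusted p = 0.000372), -1.37 (adjusted p = 0.0124), -1.57 (adjusted p = 0.000793) and -1.33 (adjusted p = 0.00420), and in the fit without the 3 libraries named with the medians. The replicate block did not call Cav1-KO in hypoxic females (-1.34, adjusted p = 0.0826), limma did not call Cav1-RC in normoxic males (-1.36 on log2(FPKM + 1), adjusted p = 0.0800), and each of the 4 calls was lost on leaving out some single library. In normoxic females the differences were -1.23 ± 0.18 (adjusted p = 0.0868) for Cav1-KO and -0.88 ± 0.21 (adjusted p = 0.423) for Cav1-RC, and in hypoxic males -0.32 ± 0.36 (adjusted p = 0.664) and -0.51 ± 0.31 (adjusted p = 0.231), which did not pass. Between Cav1-RC and Cav1-KO its log2 fold changes were 0.35 and 0.10 in normoxic and -0.02 and -0.21 in hypoxic females and males, none past the threshold.

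Mx1 and Mx2 are dynamin-like GTPases that block viral particles. Mx1 was 6.35, 13.4 and 5.31 CPM in normoxic Control males and 2.92, 2.82 and 3.07 CPM in normoxic Cav1-KO males, with -1.49 ± 0.36 (adjusted p = 0.0353). Without male Control normoxia replicate 2 the value was -0.97, below the fold limit. Under hypoxia Mx2 was 4.34, 3.19 and 2.31 CPM in Cav1-RC females against 9.36, 7.82 and 6.79 CPM in Cav1-KO females, and 3.77, 3.64 and 2.67 against 15.0, 9.68 and 9.47 CPM in males, without overlap in either sex. The differences were -1.29 ± 0.29 (adjusted p = 0.0192) and -1.76 ± 0.24 (adjusted p = 0.000872). In the fit with the list term they were 0.17 (adjusted p = 0.871) and -0.28 (adjusted p = 0.788), so in females the sign turned.

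Of the Ifit proteins, Ifit1 binds viral RNA that lacks host cap marks. Ifit2 was 26.4, 34.5 and 39.8 CPM in hypoxic Cav1-RC females and 14.2, 16.6 and 15.9 CPM in hypoxic Cav1-KO females, and 35.0, 38.0 and 35.5 and 18.7, 15.1 and 15.5 CPM in males. Both pairs of groups were apart, with 1.11 ± 0.18 (adjusted p = 0.00655) in females and 1.13 ± 0.12 (adjusted p = 0.000307) in males. In Cav1-KO it fell with hypoxia, below the fold limit, at -0.91 ± 0.13 (adjusted p = 0.00249) and -0.94 ± 0.11 (adjusted p = 0.000225). With the blot list term the Cav1-RC to Cav1-KO differences were 0.41 (adjusted p = 0.390) and 0.43 (adjusted p = 0.365). Its neighbour Ifit1 rose in hypoxic Cav1-KO males by 0.75 ± 0.28 (adjusted p = 0.0487), and Ifit3, from 39.5 to 123 CPM, passed in no comparison.

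Ifi35, a nuclear and cytoplasmic leucine zipper protein, rose with hypoxia in Cav1-KO males from 38.6, 36.8 and 39.9 to 99.3, 68.7 and 68.4 CPM, at 1.01 ± 0.14 (adjusted p = 0.000459). With the blot list term the change was 0.16 (adjusted p = 0.825). Ifih1, the sensor of long double-stranded RNA, never reached the fold limit but passed the adjusted p in 6 comparisons. It fell with hypoxia in Cav1-KO males (-0.66), Cav1-KO females (-0.68) and Control males (-0.55), and was higher in hypoxic Cav1-RC than in Cav1-KO females (0.71), Cav1-KO males (0.78) and Control males (0.79). All 6 are the comparisons that set wholly listed against unlisted mice. Ddx58 ranged from 47.7 to 80.6 CPM and passed in none, and Dhx58, the third of this family, fell by 0.71 on the log2 scale with hypoxia in Cav1-KO females.

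**Figure D5:**
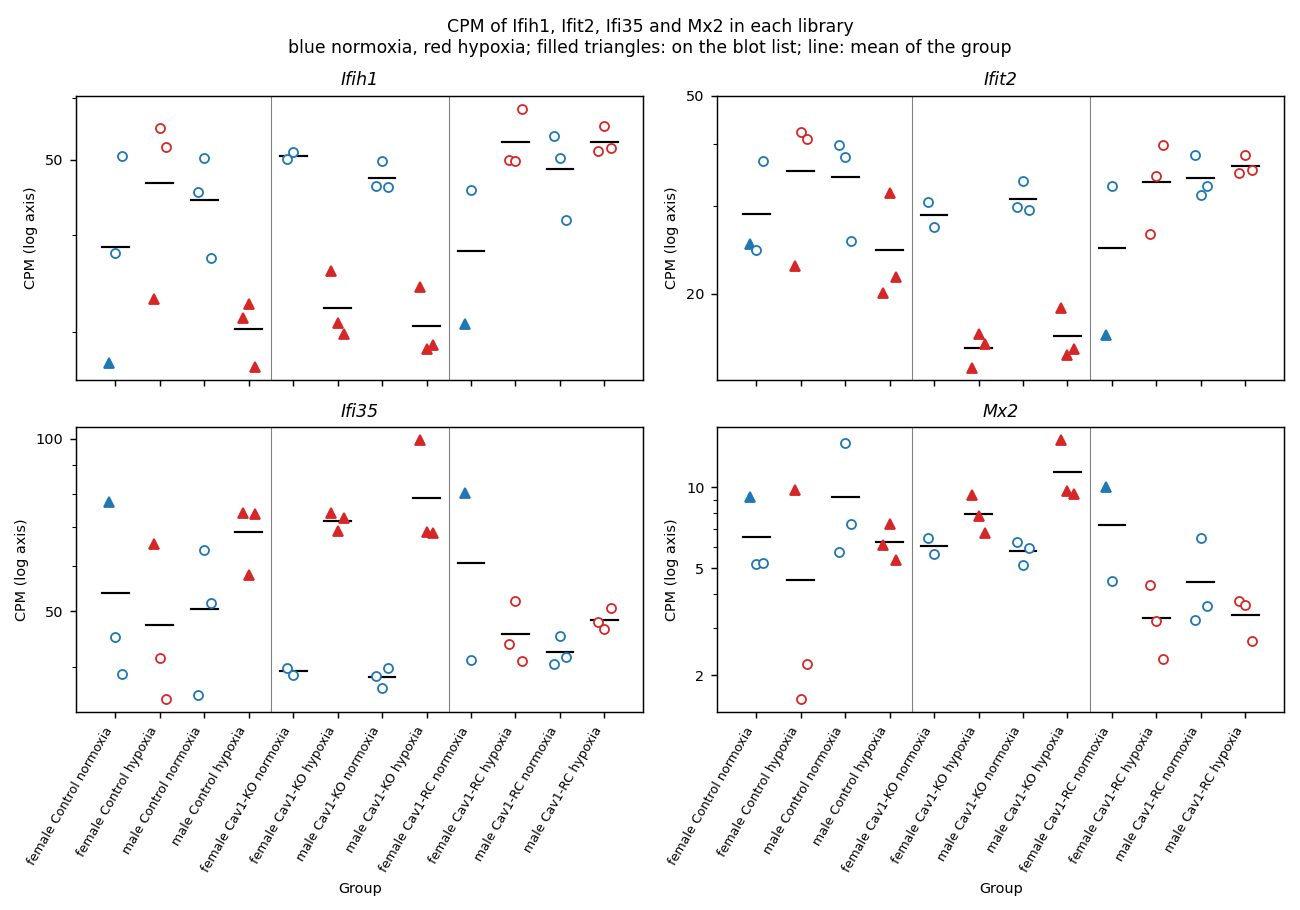
CPM on a log axis in each library of the 12 groups for Ifih1, Ifit2, Ifi35 and Mx2, with normoxia in blue, hypoxia in red, filled triangles for mice on the western blot list and a line at the mean of the group. Listed mice lie at 27.0 to 35.9 CPM for Ifih1 and the others at 37.3 to 58.2 CPM.

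Ifi27l2a, a small mitochondrial protein, was 45.7, 57.7 and 23.5 CPM in normoxic Cav1-RC males and 17.8, 21.1 and 20.6 CPM in normoxic Cav1-KO males, with 1.09 ± 0.25 (adjusted p = 0.0165). The 2 high values are from the libraries whose sex genes go against the label, and the third mouse alone differed by 0.24, with no test. Bst2 rose with hypoxia in Cav1-KO males by 0.68 (adjusted p = 0.0137) and in females by 0.40 (adjusted p = 0.0345). Trim30a and Parp14, a ubiquitin-ligase family member and an ADP-ribosyltransferase, rose in the same males by 0.82 (adjusted p = 0.00201) and 0.68 (adjusted p = 0.0307). Rtp4 ranged from 18.9 to 69.1 CPM and Ifi44 from 5.74 to 38.6 CPM, with the highest value of each in male Control normoxia replicate 2.

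With each library left out alone in turn, 12 of the 35 calls were kept throughout. These were Rsad2 for Cav1-RC against Cav1-KO in normoxic males, Zbp1 and Oas3 for Cav1-RC against Cav1-KO in hypoxic females, Mx2 and Ifit2 for Cav1-RC against Cav1-KO in hypoxic males, Oas3 for Cav1-RC against Control in hypoxic males, Rsad2 and Oas2 for hypoxia against normoxia in Cav1-KO females and Rsad2, Herc6, Oas2 and Isg15 for hypoxia against normoxia in Cav1-KO males. For Cav1-KO against Control in normoxic males, the call of Mx1 was lost without male Control normoxia replicate 2 or male Cav1-KO normoxia replicate 1, 2 or 3, and that of Xaf1 without male Cav1-KO normoxia replicate 1, 2 or 3. Then log2 fold changes lay between -1.70 and -0.97 and adjusted p between 0.0398 and 0.137. For Cav1-KO against Control in hypoxic females, the call of Xaf1 was lost without female Control hypoxia replicate 2 or 3 or female Cav1-KO hypoxia replicate 1, 2 or 3. In these log2 fold changes lay between -1.43 and -1.21 and adjusted p between 0.0784 and 0.142. For Cav1-RC against Cav1-KO in normoxic males, the call of Zbp1 was lost without male Cav1-RC normoxia replicate 2, and that of Oas3 without male Cav1-KO normoxia replicate 3, and that of Ifi27l2a without male Cav1-KO normoxia replicate 1 or 3 or male Cav1-RC normoxia replicate 2. In these log2 fold changes lay between 0.80 and 1.73 and adjusted p between 0.00814 and 0.0796. For Cav1-RC against Cav1-KO in hypoxic females, the call of Rsad2 was lost without female Cav1-KO hypoxia replicate 1, 2 or 3 or female Cav1-RC hypoxia replicate 3, and that of Mx2 without female Cav1-KO hypoxia replicate 1 or 2 or female Cav1-RC hypoxia replicate 2, and that of Ifit2 without female Cav1-RC hypoxia replicate 3. Then adjusted p lay between 0.0120 and 0.0786. For Cav1-RC against Cav1-KO in hypoxic males, the call of Rsad2 was lost without male Cav1-KO hypoxia replicate 1 or 3 or male Cav1-RC hypoxia replicate 1, 2 or 3, and that of Oas3 without male Cav1-KO hypoxia replicate 2 or 3 or male Cav1-RC hypoxia replicate 2 or 3, and that of Isg15 without male Cav1-KO hypoxia replicate 1 or 3 or male Cav1-RC hypoxia replicate 1 or 3. Then adjusted p lay between 0.0636 and 0.150. For Cav1-RC against Control in normoxic males, the call of Xaf1 was lost without male Cav1-RC normoxia replicate 1, 2 or 3. In these log2 fold changes lay between -1.66 and -1.50 and adjusted p between 0.106 and 0.126. For Cav1-RC against Control in hypoxic females, the call of Rsad2 was lost without female Control hypoxia replicate 2 or 3 or female Cav1-RC hypoxia replicate 1, and that of Xaf1 without female Control hypoxia replicate 2 or 3 or female Cav1-RC hypoxia replicate 1 or 2. Then adjusted p lay between 0.0866 and 0.109. For Cav1-RC against Control in hypoxic males, the call of Zbp1 was lost without male Control hypoxia replicate 3 or male Cav1-RC hypoxia replicate 2 or 3, and that of Gbp3 without male Control hypoxia replicate 2 or 3 or male Cav1-RC hypoxia replicate 2 or 3, and that of Gbp2 without male Control hypoxia replicate 3 or male Cav1-RC hypoxia replicate 3. Then log2 fold changes lay between 0.69 and 1.25 and adjusted p between 0.0405 and 0.107. For hypoxia against normoxia in Cav1-KO males, the call of Ifi35 was lost without male Cav1-KO hypoxia replicate 1 or male Cav1-KO normoxia replicate 2, and that of Stat2 without male Cav1-KO hypoxia replicate 1 or male Cav1-KO normoxia replicate 2 or 3. Then log2 fold changes lay between 0.57 and 1.14 and adjusted p between 0.000167 and 0.0556. For hypoxia against normoxia in Cav1-RC males, the call of Gbp3 was lost without male Cav1-RC hypoxia replicate 3 or male Cav1-RC normoxia replicate 1 or 3, and that of Gbp2 without male Cav1-RC normoxia replicate 1, and that of Gbp7 without male Cav1-RC hypoxia replicate 3 or male Cav1-RC normoxia replicate 1. In these log2 fold changes lay between 0.94 and 1.49 and adjusted p between 0.0292 and 0.0792.

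When both sexes were averaged in 1 fit over the 34 libraries, 9 contrasts gave 15 calls. Hypoxia against normoxia in Cav1-KO called Rsad2, Oas2 and Isg15 (16.5% of all genes called), of which Oas2 changed by 1.75 ± 0.32 (adjusted p = 0.000143) and Isg15 by 1.10 ± 0.32 (adjusted p = 0.00685). Rsad2 was also higher in hypoxic Cav1-KO than in hypoxic Control, by 2.13 ± 0.41 (adjusted p = 0.000863) (5.36% of all genes called). In normoxia Cav1-KO had less Mx1 and Xaf1 than Control (5.7%), with -1.43 ± 0.21 (adjusted p = 5.16e-05) for Xaf1. Cav1-RC under hypoxia exceeded Cav1-KO in Zbp1, Oas3 and Ifit2 and had less Mx2 (15.3%), with 1.12 ± 0.17 (adjusted p = 2.47e-05) for Ifit2. It exceeded Control in Rsad2, Zbp1 and Oas3 (5.2%), with 1.47 ± 0.36 (adjusted p = 0.00819) for Oas3. In normoxia Cav1-RC exceeded Cav1-KO in Rsad2 (3.26%) and had less Xaf1 than Control (2.72%). None was called for hypoxia in Control (2.33%) or Cav1-RC (1.23%), where 6 and 5 of the 32 had an unadjusted p under 0.05 in edgeR (20.1% and 15.0% of all genes) and DESeq2 called 0 (1.67% and 0.906%). Below the fold limit, Ifi44 passed the adjusted p for hypoxia in Control, at -0.90 (adjusted p = 0.0389), and Ifi27l2a in Cav1-RC, at -0.95 (adjusted p = 0.0451).

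Whether the sexes differed in these contrasts was tested directly. Of 288 tests (32 genes by 9 contrasts) none had an adjusted p under 0.05 in edgeR, against 0.186% of all genes for Cav1-KO against Control under hypoxia, 0.136% for Cav1-RC against Control under hypoxia, 0.277% for hypoxia in Control and 0.0% for the other 6 contrasts. The smallest adjusted p of the 32 genes was 0.0690, while 29 had an unadjusted p under 0.05 (10.4% over all genes) and the DESeq2 Wald test passed 2 (1.01%). The count moved with single libraries. Without female Control hypoxia replicate 1 it was 10 (8.8% over all genes), without male Control hypoxia replicate 2 it was 3 (0.765%), without female Control normoxia replicate 3 it was 2 (2.87%) and without male Cav1-KO hypoxia replicate 2 it was 1 (0.0822%). The test also holds 3 libraries labelled male whose sex genes go against the label. Among normoxic Cav1-RC males 2 of the 3 are such libraries, and without them that group is 1 mouse with no spread of its own. A difference between the sexes in hypoxic against normoxic Cav1-RC, as for Gbp2, was therefore not shown here.

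Levels were then set out by the western blot list, over 12 listed and 22 other mice. Only Ifih1, of the 32 genes, had no overlap, with 27.0 to 35.9 CPM in listed and 37.3 to 58.2 CPM in other mice, where 6.62% of all genes did not overlap. Within the 3 groups that hold both kinds, all of them female, the listed mouse was lower than the mean of its mates in all 3 for 6 genes (Ifit2, Oas3, Ifih1, Ddx58, Parp14 and Rsad2) and higher in all 3 for 15, against 28.0% and 30.3% of all genes. The log2 ratio of the listed to the other median was 1.26 for Oas2, 0.95 for Mx2 and 0.83 for Ifi35, and -0.95 for Ifit2. These are descriptions, since genotype and oxygen differ between the 2 kinds of mice.

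As a description of how the genes kept together, each was correlated with the mean of the other 31 on the log2 scale over the 34 libraries, which share genotype, oxygen and the 2 libraries of high levels. Pearson's r was above 0.6 for 21 of the 32 genes, from 0.65 for Ifi44 to 0.95 for Oasl2. Without the 2 high libraries it was above 0.6 for 13. Ifit1 (0.89) and Irf7 (0.87) followed Oasl2. It was under 0.2 for Xaf1 (0.13), Ddx58 (0.09), Ifih1 (-0.02) and Ifit2 (-0.09). With the mean of each group taken out, r was 0.67 for Xaf1, 0.26 for Ddx58, 0.15 for Ifih1 and 0.05 for Ifit2. Outside the set, among the genes most like its mean were Tap1 (0.88), Apol9b (0.88), Irf9 (0.87) and Gm12185 (0.85), and 8 of the closest 10 were on the list of further interferon-stimulated genes. The median r over all genes was 0.03.

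Interferon RNA itself was scarce. Of 21 interferon genes in the table, 12 had no count in any of the 34 libraries, Ifnb1 among them, and 19 had at most 3 counts in any library. Ifng, the type II interferon, had counts in 27 of 34 libraries, at most 16 counts and 0.806 CPM. At 12425535 counts or more per library, 0 counts leaves up to 3 counts, and with so few counts no difference between groups was read from these genes. In male Control normoxia replicate 2 Ifng had 0.491 CPM against 0 and 0.176 in its mates. In male Cav1-KO hypoxia replicate 1 it had 0.615 CPM against 0.127 and 0.262. Its highest value of all was in female Cav1-RC normoxia replicate 1, and none of this was tested. Receptors and signaling genes were ample, with 17 genes summing to 1068 to 1446 CPM. Of these Jak1, the kinase shared by both receptors, fell with hypoxia in Cav1-KO males by 1.11 and females by 1.16 on the log2 scale (adjusted p = 4.27e-05 and 0.000540) and was higher in hypoxic Cav1-RC than Cav1-KO females by 1.00 (adjusted p = 0.00598). Socs1, which restrains the pathway, rose with hypoxia in Cav1-KO females by 1.09 (adjusted p = 0.00669), and Stat2, counted above, was the only other call of the 17. The comparisons given here for Jak1 and Socs1 set wholly listed against unlisted mice. Jak1 stood at 109 to 139 CPM in the listed mice and at 164 to 286 CPM in the others.

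Among nucleic acid sensors (21 tested, 5 of them in the set), Zbp1, Tlr7, Tlr8 and Tlr9 were called in some comparison. Each gene had 18 comparisons to be called in, and 0.0175% to 17.7% of all genes were called in each, so no excess is read from this. Tlr9, the sensor of unmethylated DNA, was 0.423 to 1.21 CPM in hypoxic Cav1-KO males and 2.92 to 4.81 CPM in normoxic ones, and 3.40 to 6.64 CPM in hypoxic Cav1-RC males. It fell by 2.53 on the log2 scale with hypoxia in Cav1-KO males (adjusted p = 0.000798) and by 3.17 in Control males (adjusted p = 0.00628). These are again comparisons of listed with unlisted mice.

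Further interferon-stimulated genes, 98 in the table of which 92 to 95 were tested, were counted beside the set. Hypoxia against normoxia called 15 higher and 4 lower of 94 in Cav1-KO males, where 17.7% of all genes were called, and 13 higher and 0 lower of 95 in Cav1-RC males (2.27% of all genes). Cav1-RC against Cav1-KO called 18 higher and 0 lower of 95 in females under hypoxia (8.98% of all genes), and in normoxic males 11 higher and 2 lower of 95 (3.59%). Against Control it called 11 higher and 0 lower of 95 in hypoxic males (9.9%) and 10 higher and 0 lower of 94 in hypoxic females (0.832%). Hypoxia in Cav1-KO males, Cav1-RC against Cav1-KO in hypoxic females and Cav1-RC against Control in hypoxic males set wholly listed against unlisted mice. The male Cav1-RC normoxia group holds libraries whose sex genes go against the label. In hypoxic Cav1-RC males the guanylate-binding genes Gbp4 and Gbp5 had 263 to 505 and 64.2 to 169 CPM, against 67.1 to 110.3 and 16.3 to 26.3 CPM in normoxia, rises of 2.09 and 2.33 on the log2 scale. Some of the calls were of genes close to absent in part of the libraries. Trim30d was 0.108 to 0.298 CPM in normoxic Cav1-RC males but 9.52 to 11.3 CPM in hypoxic ones and 12.8 to 25.8 CPM in all Cav1-KO mice. Ifi213 was 7.97 to 53.0 CPM in Cav1-RC, 0.108 to 21.8 CPM in Cav1-KO and 0.0816 to 24.7 CPM in Control, so single libraries of the latter groups lay near 0.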

How the data were processed

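Whole lungs were taken from 34 mice in 12 groups and 1 of uncertain identity, and RNA was extracted with TRIzol, selected for poly-A and made into strand-specific libraries. Per the study's methods the authors aligned reads with HISAT2 2.0.5 to mm10 and counted them per gene with featureCounts 1.5.0-p3, and the counts and FPKM values deposited by the authors were used here. Default parameters were stated for the counting, which then does not use strand, so reads of a gene and of one overlapping it on the other strand cannot be told apart. The 32 genes and the gene lists were chosen with earlier results of these data known.

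From the counts, groups were compared in 18 pairs with edgeR 4.0.16 in R 4.3.3 (TMM, filterByExpr, quasi-likelihood test, libraries of both groups only, Benjamini-Hochberg over all genes tested, 16981 to 17853), and the sexes together and their difference in 1 fit over 34 libraries (19870 genes). A call needed an absolute log2 fold change above 1 and an adjusted p under 0.05. SE is the absolute log2 fold change over the square root of F. By rule, values in single libraries were for up to 12 of the genes, ordered by their number of calls and then by their smallest adjusted p, and up to 3 called genes per comparison were named from each other list. Mx1, Stat2, Irf7, Cmpk2 and Ifi27l2a were added to the former after their values were seen.

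Alternatives were DESeq2 1.42.0 (size factors, and its Wald test), no low-count filter, the adjusted p alone, 1 fit over all libraries with and without a term for the western blot list, fits without libraries whose sex genes go against the label, a replicate block, limma 3.58.1 on log2(FPKM + 1) with mean FPKM above 0.1, and each library left out. A fit without 3 libraries (male Control normoxia replicate 2, male Cav1-KO hypoxia replicate 1 and male Cav1-RC hypoxia replicate 3) was added after seeing the data. The test code was tested on simulated data. Replicates differed by more than sampling noise (chi-square per gene 4.69 to 197 over 32 pairs), so none was merged. With 12425535 to 33343006 counts a library, a count of 0 allows up to 3 counts. Mice are separate animals, and p-values measure the spread between them. A library of uncertain identity was left out of all comparisons. Values of 1 further gene are not reported here.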

Additional observations from a re-analysis of the deposited data

Results flagged for a closer look

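A library whose label calls its identity uncertain belongs to no group and entered no comparison. The label names female Cav1-KO normoxia as a possibility only. The animal is on the western blot list, which enters it as a normoxic Cav1-KO female, and its Ifih1, at 32.2 CPM, lay within the 27.0 to 35.9 CPM of the other listed mice. In it 4 of the 32 genes lay above all 12 Control libraries, at 96.1 CPM for Rsad2, 73.2 CPM for Oas2, 32.7 CPM for Isg15 and 87.9 CPM for Ifi35. Of all genes, 15.7% lay above the Control range in the same library and 10.1% below. The 2 labelled mice of female Cav1-KO normoxia had 3.32 and 3.71 CPM of Rsad2 and 26.3 and 18.1 CPM of Oas2. Ifit2 lay below the Control range (19.5 CPM), the other 27 within it, and Cav1 stood at 4.82 CPM.

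Ifi44, which is induced by type I interferon, had no overlap between Cav1-KO and Control in normoxia but in opposite order in the sexes, at 14.3 and 15.0 CPM against 12.8 to 14.03 CPM in females and 11.9 to 13.7 against 14.4 to 38.6 CPM in males. The log2 fold changes, of which neither passed, were 0.12 in females and -0.83 in males. The test of this sex difference in edgeR did not pass, at 0.97 ± 0.55 (SE, female minus male) with an adjusted p of 1.00. The male value holds male Control normoxia replicate 2, which had the 38.6 CPM.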

How the results depend on the processing

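Counts of the 32 genes called were recomputed against the counts given in the report, one choice at a time except that the fits with the blot list term and those without 3 libraries also pool all groups in 1 fit, which by itself moved 8 counts. DESeq2 size factors left all 20 counts within 1.5 times. Without the low-count filter the number called was 1 for Cav1-KO against Control in female normoxia, 2 for Cav1-KO against Control in male hypoxia, Cav1-RC against Cav1-KO in female normoxia, hypoxia in male Control, hypoxia in female Cav1-RC and the difference between the sexes, 4 for Cav1-KO against Control in female hypoxia, 5 for Cav1-KO against Control in male normoxia, 11 for hypoxia in male Cav1-KO. With the replicate number as a block the number called was 0 for Cav1-KO against Control in female hypoxia, 1 for Cav1-KO against Control in female normoxia, hypoxia in male Control and hypoxia in female Cav1-RC, 2 for Cav1-RC against Cav1-KO in male hypoxia, Cav1-RC against Control in male normoxia and Cav1-RC against Control in male hypoxia. By the DESeq2 Wald test the number called was 1 for Cav1-KO against Control in female normoxia, Cav1-KO against Control in male hypoxia, Cav1-RC against Cav1-KO in female normoxia, Cav1-RC against Control in female normoxia and hypoxia in male Control, 2 for the difference between the sexes, 4 for Cav1-KO against Control in male normoxia, Cav1-KO against Control in female hypoxia and Cav1-RC against Control in female hypoxia. In 1 fit over all 34 libraries the number called was 0 for Cav1-RC against Cav1-KO in male normoxia and hypoxia in male Cav1-RC, 1 for Cav1-KO against Control in female normoxia, Cav1-KO against Control in male hypoxia, Cav1-RC against Control in male hypoxia and hypoxia in female Cav1-KO, 4 for Cav1-KO against Control in male normoxia and Cav1-KO against Control in female hypoxia. In that fit with the blot list term the number called was 0 for Cav1-RC against Cav1-KO in female hypoxia, Cav1-RC against Control in male hypoxia, hypoxia in female Cav1-KO and hypoxia in male Cav1-RC, 1 for Cav1-KO against Control in female normoxia, Cav1-KO against Control in male hypoxia, Cav1-RC against Cav1-KO in male normoxia, Cav1-RC against Cav1-KO in male hypoxia, hypoxia in male Control and hypoxia in male Cav1-KO, 4 for Cav1-KO against Control in male normoxia, 9 for both sexes together. In a fit without the 3 libraries whose sex genes go against the label, where male Cav1-RC normoxia is 1 mouse assumed to vary like the other groups, the number called was 0 for Cav1-RC against Cav1-KO in male normoxia, Cav1-RC against Control in male hypoxia, hypoxia in female Cav1-KO and hypoxia in male Cav1-RC, 1 for Cav1-KO against Control in female normoxia and Cav1-KO against Control in male hypoxia, 2 for Cav1-RC against Cav1-KO in female hypoxia, hypoxia in male Control and the difference between the sexes, 4 for Cav1-KO against Control in female hypoxia. In a fit without 3 libraries chosen after seeing the data (male Control normoxia replicate 2, male Cav1-KO hypoxia replicate 1 and male Cav1-RC hypoxia replicate 3) the number called was 0 for Cav1-RC against Control in male hypoxia and hypoxia in male Cav1-RC, 1 for Cav1-KO against Control in female normoxia, Cav1-KO against Control in male normoxia, Cav1-RC against Cav1-KO in male normoxia, hypoxia in male Control and hypoxia in female Cav1-KO, 4 for Cav1-KO against Control in female hypoxia. By limma on log2(FPKM + 1) the number called was 0 for Cav1-RC against Cav1-KO in male normoxia, Cav1-RC against Control in male normoxia and hypoxia in male Cav1-RC, 1 for Cav1-KO against Control in male normoxia, Cav1-RC against Cav1-KO in female hypoxia, Cav1-RC against Cav1-KO in male hypoxia, Cav1-RC against Control in female hypoxia, Cav1-RC against Control in male hypoxia and hypoxia in female Cav1-KO, 2 for hypoxia in male Cav1-KO, 8 for both sexes together. With the adjusted p alone the number called was 1 for hypoxia in male Control, 5 for hypoxia in male Cav1-RC, 9 for Cav1-RC against Cav1-KO in male hypoxia and Cav1-RC against Control in male hypoxia, 10 for Cav1-RC against Cav1-KO in female hypoxia, 12 for Cav1-RC against Cav1-KO in male normoxia and hypoxia in female Cav1-KO, 15 for hypoxia in male Cav1-KO, 44 for both sexes together. Leaving out each library in turn gave 0 to 0 for Cav1-RC against Control in female normoxia, hypoxia in female Control and hypoxia in female Cav1-RC, 0 to 1 for Cav1-KO against Control in female normoxia and hypoxia in male Control, 0 to 2 for Cav1-KO against Control in male hypoxia, Cav1-RC against Control in male normoxia and Cav1-RC against Control in female hypoxia, 0 to 4 for hypoxia in male Cav1-RC, 0 to 7 for Cav1-KO against Control in female hypoxia and Cav1-RC against Cav1-KO in female normoxia, 0 to 10 for the difference between the sexes, 0 to 12 for Cav1-KO against Control in male normoxia, 1 to 5 for Cav1-RC against Control in male hypoxia, 2 to 2 for hypoxia in female Cav1-KO, 2 to 6 for Cav1-RC against Cav1-KO in male normoxia, 2 to 7 for Cav1-RC against Cav1-KO in male hypoxia, 3 to 5 for Cav1-RC against Cav1-KO in female hypoxia, 5 to 13 for hypoxia in male Cav1-KO, 13 to 22 for both sexes together. The highest of these were 12 for Cav1-KO against Control in male normoxia without male Control normoxia replicate 1, 7 for Cav1-KO against Control in female hypoxia without female Control hypoxia replicate 1, 7 for Cav1-RC against Cav1-KO in female normoxia without female Cav1-RC normoxia replicate 2, 13 for hypoxia in male Cav1-KO without male Cav1-KO hypoxia replicate 2, 10 for the difference between the sexes without female Control hypoxia replicate 1. Of the 35 single calls, 34 were kept by the DESeq2 Wald test, 22 in 1 fit over all libraries, 17 without the libraries of contrary sex genes, 16 without the 3 libraries chosen after seeing the data, and 9 each with the blot list term and by limma. The 1 added to FPKM shrinks fold changes of genes at low FPKM, so the same fold limit is stricter in limma. Oas3 for Cav1-RC against Cav1-KO in female hypoxia was thus lost at 0.56 with an adjusted p of 0.0208 in limma. The sign turned in 1 call, Mx2 for Cav1-RC against Cav1-KO in female hypoxia with the blot list term (0.17). Same-numbered libraries did not move together throughout (49 pairs, r -0.17 to 0.57). In 0 of 13 comparisons of 3 or more pairs was every pair above 0.1, so the numbers were not taken to pair the mice. For Cav1-RC against Control in normoxic females, with fewer pairs, r was 0.57 and 0.19 for replicates 1 and 2. In hypoxic females it was 0.47 and 0.46 for replicates 1 and 3 and -0.17 for replicate 2. The replicate block kept 27 of the 35 calls. The cause of these shifts was not tested.

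Depth limits the interferon genes and Oas3. Groups of 2 or 3 mice give wide errors, and 6 comparisons set wholly listed against unlisted mice. Libraries whose sex genes go against the label were kept.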
